A study of Mus musculus with 4 samples.

Results

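The genes described here are the machinery that the endoplasmic reticulum (ER) uses to take in, fold and discard proteins, measured by RNA sequencing in sorted mouse pancreatic β-cells. They are 46 named genes, all found in the table and past its filter on low counts, of 23420 genes in the deposited count table and 14649 tested. They were grouped by role into 13 chaperones and lectin-cycle proteins, 7 genes of disulfide exchange, 11 of the translocon and signal peptidase, 10 of ER-associated degradation (ERAD) and 5 stress sensors and regulators. The comparison is between 2 libraries from animals labelled Bmal1KO/DTA and 2 from animals labelled Bmal1+/-, also with DTA, so the controls carry 1 intact allele and are not wild type. Bmal1, listed in the table as Arntl, encodes a transcription factor of the circadian clock. DTA is the toxic A chain of diphtheria toxin. All animals had received doxycycline for 10 days, which induced massive loss of β-cells, and the sorted cells are those that were left. The labels do not name the promoters behind DTA and the Bmal1 deletion, the animals' age or strain, or whether a library stands for 1 animal, and no library comes from unablated or Bmal1 wild-type cells. P-values therefore measure only how far these libraries scatter, and that scatter may be technical.

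Totals ran from 31056116 to 38020488 counts per library, and replicates differed by more than sampling noise. The targeted gene was higher where a knockout is labelled: Arntl counts were 2490 and 2101 under the KO label, against 892 and 495 under the heterozygous label. Counts over a whole gene do not show whether a deleted part is missing, so the groups are called by their labels, and higher or lower always refers to the KO-labelled libraries relative to the others. The β-cell genes Ins2 (151722 to 194550 CPM) and Iapp (32076 to 50934 CPM) were abundant in each library, but the β-cell markers as a list differed between the groups. Of 10, 7 were lower without overlap and 0 higher, the median log2 fold change was -0.45, and 3 fell in edgeR's test with Benjamini-Hochberg adjustment: the hormone gene Ucn3 (52.9, 89.1, 270 and 314 CPM, -2.04, adjusted p = 0.016), the glucose-6-phosphatase gene G6pc2 (-0.96, adjusted p = 0.0175) and the zinc transporter gene Slc30a8 (-0.92, adjusted p = 0.023). Of 7 α-cell markers 4 were higher without overlap and 2 lower. Irx2 was called higher (21.9, 12.7, 2.30 and 3.27 CPM, 2.64 on the log2 scale). Gc was called lower (230, 191, 392 and 405 CPM, -0.92, edgeR adjusted p = 0.0286). Over all genes tested, 23.8% were lower without overlap and 25.3% higher. The PP-cell hormone gene Ppy was at 1974, 4008, 1319 and 1046 CPM and did not pass (adjusted p = 0.085). Markers outside the islet differed too. Summed stromal markers were at 158 and 426 CPM under the KO label against 68.7 and 28.2 CPM. Of 13, 7 were higher without overlap and 0 lower, beside 25.3% of all genes tested higher and 23.8% lower. Of 14 immune markers 9 were higher without overlap and 0 lower, and the sum of the 14 was at 444 and 1349 against 434 and 516 CPM. Of 9 endothelial markers 3 were higher and 0 lower, with sums of 42.2 and 22.4 against 15.3 and 11.8 CPM. Duct markers went the other way in sum, at 569 and 549 against 742 and 818 CPM, of which Krt7 gave 368 and 397 against 567 and 663 CPM. Of 8 duct markers 3 were higher without overlap and 1 lower. Mitosis genes were lower, at 77.5 and 175 against 602 and 782 CPM over 12 genes, and dissociation stress genes were higher, at 1551 and 942 against 512 and 494 CPM over 12 genes. Levels are CPM, counts relative to library size after scaling by the trimmed mean of M-values (TMM). Values are given in the order KO replicates 1 and 2, then heterozygous replicates 1 and 2.

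Proteins bound for secretion, insulin among them, enter the ER through the SEC61 channel, lose their signal peptide, and fold with the help of chaperones and of enzymes that form and rearrange disulfide bonds. Proinsulin needs such bonds, and β-cells are known for a heavy load of it. Proteins that fail to fold are pulled back into the cytosol and degraded, which is ERAD. When unfolded proteins accumulate, the sensors IRE1, ATF6 and PERK start the unfolded protein response, in which the transcription factors XBP1 and ATF6 raise the genes of folding and ERAD, in part through a promoter motif called the ER stress element (ERSE).

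The ER machinery was lower in the libraries labelled KO. The 46 genes together took 20040 and 24144 CPM in these libraries, against 29805 and 35376 CPM in the heterozygous ones, so the groups did not overlap. The log2 fold change was below 0 for 46 of the 46 genes, from -1.38 for Ero1lb to -0.03 for Sec61b, where 47.6% of all genes tested were below 0; with scaling by library size only, Sec61b and Sec61g were above 0 and 44 below. The median was -0.42, beside 0.02 over all genes tested. These genes also moved together within a label. Heterozygous replicate 2 was above replicate 1 for 41 of the 46 (median ratio 1.15), and KO replicate 2 for 28. A count of genes is thus not a count of independent observations. The list was also chosen with earlier results of these data known, so such counts are descriptions. Single genes rarely passed the test: by edgeR's quasi-likelihood test 3 genes, Pdia6, Edem1 and Derl3, fell with a Benjamini-Hochberg adjusted p under 0.05, 0 rose and 43 did not pass. Over all genes tested 1.34% were called lower and 1.2% higher. For 38 of the 46 genes the groups did not overlap and the KO label was lower, beside 23.8% of all genes tested. They overlapped for the other 8, and no gene had the KO label higher without overlap, beside 25.3% of all genes. At an unadjusted p under 0.05 there were 24, beside 16.9% of all genes. Some of these gaps are narrow, such as 452.0 against 452.4 CPM for Spcs2. The 3 calls rest on both heterozygous libraries: without heterozygous replicate 1, or without heterozygous replicate 2, 0 of the 46 passed, beside 0.382% and 0.0341% of all genes called lower in those fits, while their median was -0.52 and -0.32. Without KO replicate 2, 9 passed, beside 2.56% of all genes. Other tools called more: DESeq2 called 14 lower, beside 3.82% of all genes, limma-voom 9, beside 1.49%, and limma on the deposited scaled values 7, beside 1.79%. The sizes also lean on single libraries: leaving out 1 library moved the log2 fold change by over 1.5 times for 25 of the 46 genes and turned its sign for 5 (Ern1, Sec61b, Sec61g, Spcs1 and Ssr3).

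**Figure D1:**
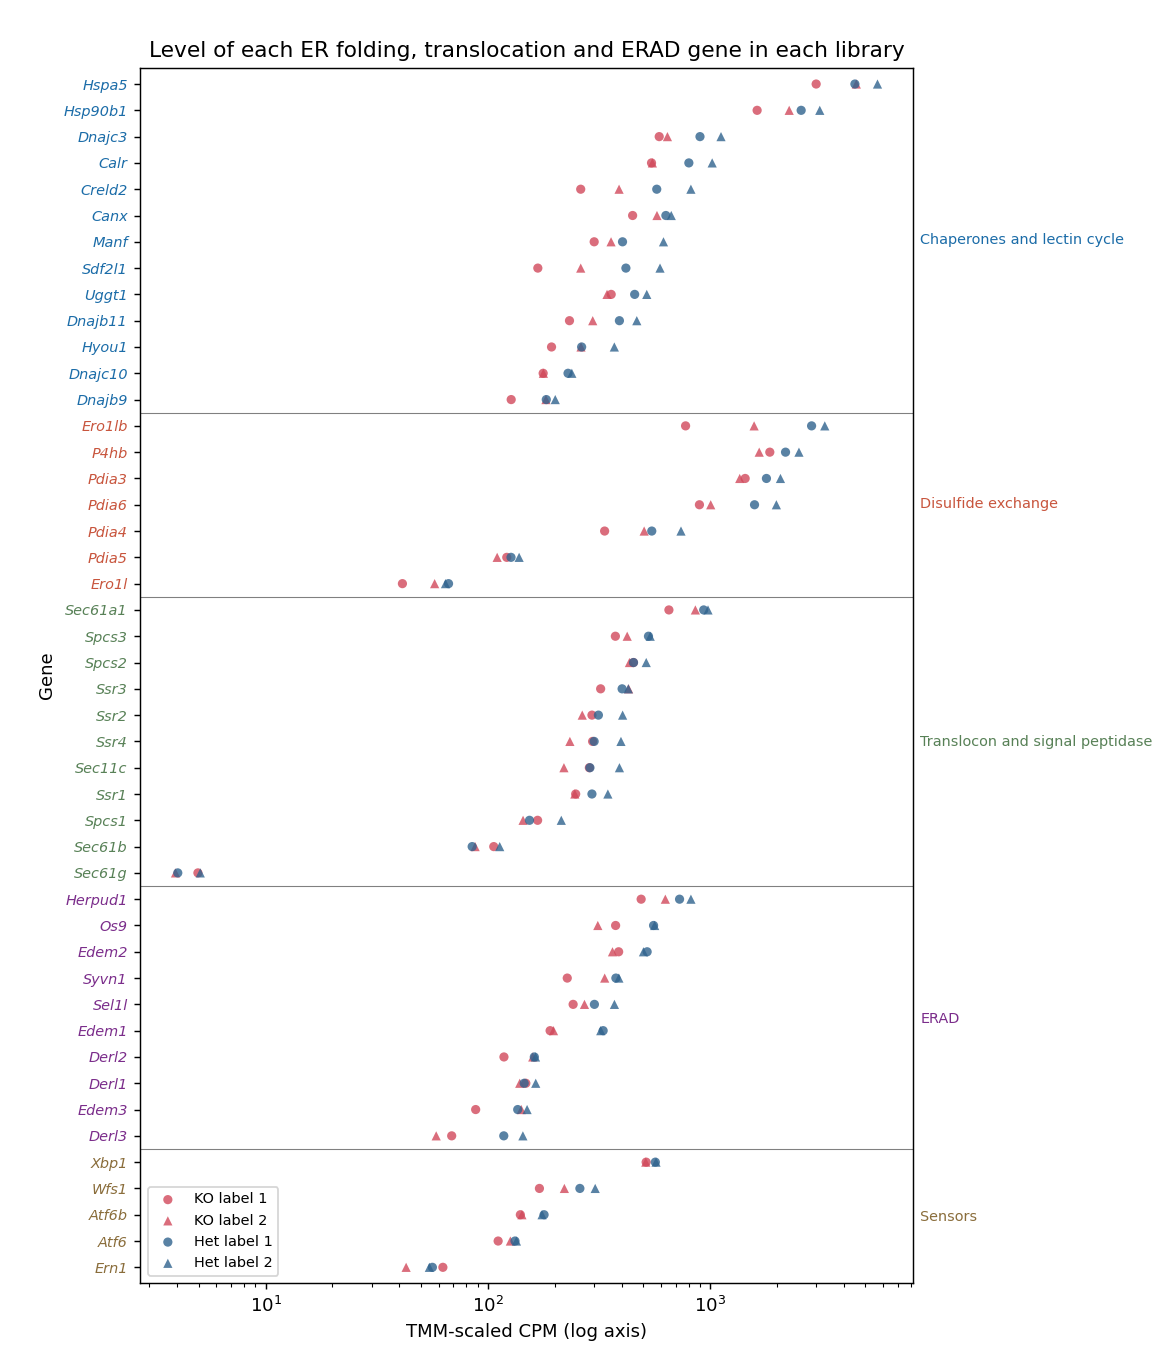
TMM-scaled CPM (log axis) of each gene in each library, with libraries labelled KO in red and those labelled heterozygous in blue, and circles and triangles for replicates 1 and 2. Red points lie left of blue ones for 38 of 46 genes, with the widest gap at Ero1lb.

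**Figure D2:**
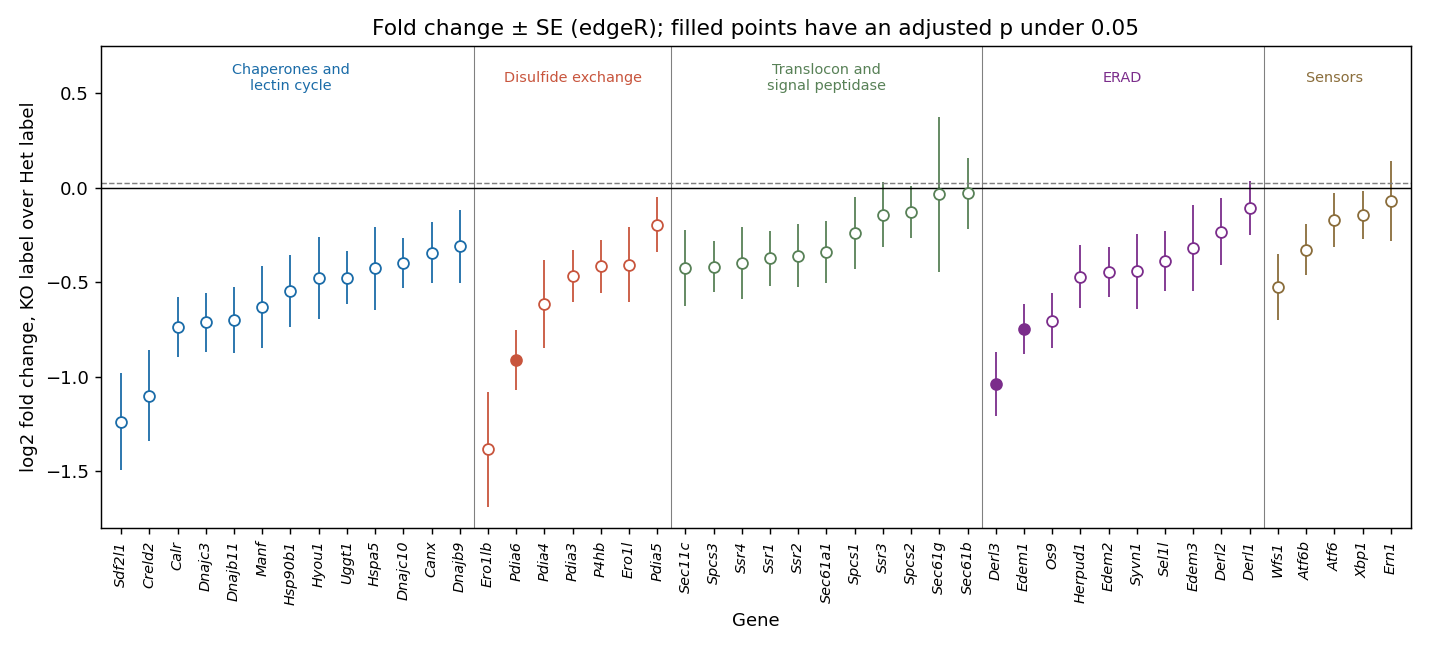
Log2 fold change of the libraries labelled KO over those labelled heterozygous for each gene, with bars of 1 SE from edgeR. Filled points are the 3 genes past the threshold (Pdia6, Edem1 and Derl3), the dashed line is the median of all genes tested, and all 46 points lie below 0, where scaling by library size only puts Sec61b and Sec61g above it.

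Acinar digestive enzymes, which mark another cell type rich in ER, also differed between these libraries. The 19 acinar markers in the table other than Bhlha15 summed to 269, 115, 83.7 and 26.4 CPM, highest in KO replicate 1. With Bhlha15 included the sums were 448, 326, 352 and 326 CPM. Bhlha15, a secretory-cell transcription factor on the same list, was at 179, 211, 269 and 299.9 CPM, a log2 difference of -0.54 that missed the threshold (edgeR adjusted p = 0.132). Plasma cell markers summed to 22.3, 12.1, 8.06 and 7.36 CPM, with Igj, Tnfrsf17, Irf4 and Pou2af1 each at 0 in 1 or more libraries. The part of the acinar, plasma cell, β-cell, other endocrine, stromal, endothelial, duct, immune, mitosis and dissociation stress genes in the lower ER levels was not tested. A smaller share of ER-rich cells cannot be told apart from less of this RNA per cell.

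The promoters of many of these genes carry the ERSE. Its consensus, searched on both strands as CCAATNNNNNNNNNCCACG (N is any base), was looked for in RefSeq windows on GRCm38.p6 that run from 250 bases before to 50 after the start site. Windows were found for 38 of the 46 genes, and 10 of these (26.3%) held a match, beside 0.119% of all 32851 windows. The genes of this list were chosen as known ER genes, so that share was to be looked for and is not evidence about these cells. The matches are shown so that the genes that share the element can be compared. They are written from CCAAT to CCACG, with the fixed letters in capitals.
Calr: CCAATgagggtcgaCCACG
Canx: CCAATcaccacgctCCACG
Creld2: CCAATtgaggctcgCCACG
Derl3: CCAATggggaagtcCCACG
Dnajc3: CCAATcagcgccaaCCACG
Ero1lb: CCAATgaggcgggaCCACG
Hsp90b1: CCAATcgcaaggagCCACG
Hsp90b1: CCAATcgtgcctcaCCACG
Hspa5: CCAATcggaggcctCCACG
Pdia6: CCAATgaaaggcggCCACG
Syvn1: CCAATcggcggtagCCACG
The ERSE-II, ATTGG and CCACG with any 1 base between them, was in 2 of 38 windows, those of Dnajb11 and Herpud1 (5.26%, beside 0.0365% of all windows).
Dnajb11: ATTGGcCCACG
Herpud1: ATTGGgCCACG
The XBP1-type core TGACGTG was in that of Hspa5 alone (2.63%, beside 2.01%). The E-box CACGTG, the letters BMAL1 and CLOCK bind, was in 5 windows, those of Atf6b, Calr, Derl3, Dnajb9 and Ssr1 (13.2%, beside 7.15%). No match of one motif overlapped a match of another in these windows.

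The 10 genes with an ERSE had a median log2 fold change of -0.72 (range -1.38 to -0.34), and the 28 without one a median of -0.39 (range -1.24 to -0.03). The ranges overlap widely, and the ERSE is unevenly spread over the roles: 6 of 11 chaperone windows held it, 2 of 7 in disulfide exchange, 2 of 9 in ERAD, 0 of 7 in the translocon and 0 of 4 among the sensors. Within the chaperones the medians were -0.63 with the motif and -0.47 without, within disulfide exchange -1.15 and -0.42, and within ERAD -0.74 and -0.44. The 5 genes with an E-box had a median of -0.37, beside -0.43 for the 33 without one. These are descriptions of letters in a window, with no test.

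**Figure D3:**
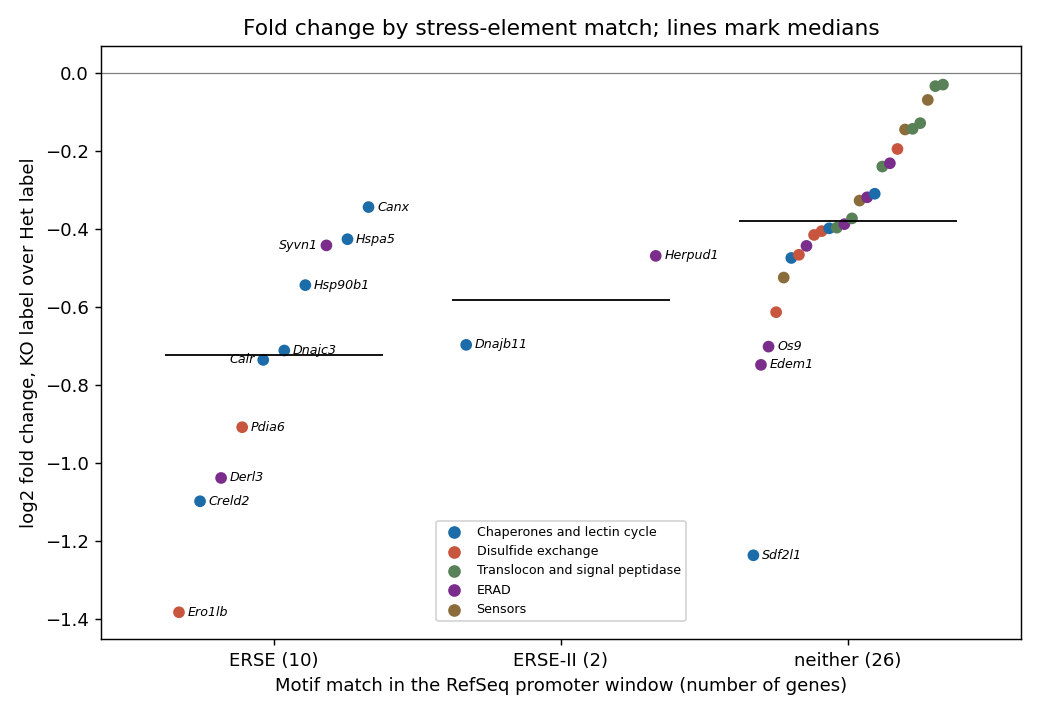
Log2 fold change of each gene with a RefSeq promoter window, split by a match to the ERSE (10 genes), to the ERSE-II (2) or to neither (26), with colours for the roles and a line at each median. Ero1lb, Creld2, Derl3 and Pdia6 lead the ERSE column, and Sdf2l1 lies far below the other genes with neither.

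Chaperones of the ER lumen were lower as a class, without a call in the main test. Of 13 genes 12 were lower without overlap, beside 23.8% of all genes tested, and the median log2 fold change was -0.54. In edgeR's test 0 passed, with 9 at an unadjusted p under 0.05, beside 16.9% of all genes. DESeq2 called 6 of them (3.82% of all genes called lower), limma-voom 4 (1.49%) and limma on the deposited scaled values 2 (1.79%). Hspa5 encodes BiP, the main HSP70 of the ER, and was the most abundant of the 46 per length, at 1199.7 CPM per kilobase of exon in the heterozygous libraries. It was at 3001, 4548, 4482 and 5665 CPM. KO replicate 2 lay just above heterozygous replicate 1, so the groups overlapped, and the log2 fold change of -0.43 with an SE of 0.22 did not pass (edgeR adjusted p = 0.384). It was -0.18 without KO replicate 1, -0.26 without heterozygous replicate 2 and -0.76 without KO replicate 2, and passed in none of these. Hsp90b1, which encodes the ER form of HSP90, GRP94, was at 1628, 2269, 2569 and 3115 CPM (-0.54, adjusted p = 0.212). Its window holds 2 ERSE matches, in opposite orientations, where that of Hspa5 holds the XBP1-type core upstream of its ERSE. Both are printed from mm10 up to the first annotated exon base, with the matches in capitals. For Hspa5 that stretch ends before its ERSE, at -65 to -47 from the start site, so its capitals mark the XBP1-type core alone.
Hspa5, chr2:34771840-34771969, plus strand: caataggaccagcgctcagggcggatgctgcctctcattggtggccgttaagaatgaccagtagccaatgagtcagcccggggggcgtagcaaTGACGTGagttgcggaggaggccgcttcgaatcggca
Hsp90b1, chr10:86705510-86705694, minus strand: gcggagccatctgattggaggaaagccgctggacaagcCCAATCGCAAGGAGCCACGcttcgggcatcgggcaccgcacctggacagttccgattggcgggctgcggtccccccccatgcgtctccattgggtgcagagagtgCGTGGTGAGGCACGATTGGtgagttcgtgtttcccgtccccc

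The chaperones with the lowest fold changes were Sdf2l1 and Creld2. Sdf2l1, which works in a complex with BiP and its J-domain partners, was at 168, 262, 418 and 595 CPM. The groups lay far apart, at -1.24 on the log2 scale (SE 0.26), and missed the threshold (edgeR adjusted p = 0.0599). Creld2, an ER stress-induced protein that can leave the cell, was at 262, 389.5, 575 and 819.7 CPM (-1.10, SE 0.24, adjusted p = 0.0711). In both genes each group had a higher replicate 2, by a ratio of 1.42 to 1.56. The windows of the pair differ: that of Creld2 holds an ERSE in reverse orientation and that of Sdf2l1 holds none of the searched motifs.
Creld2, chr15:88819396-88819645, plus strand: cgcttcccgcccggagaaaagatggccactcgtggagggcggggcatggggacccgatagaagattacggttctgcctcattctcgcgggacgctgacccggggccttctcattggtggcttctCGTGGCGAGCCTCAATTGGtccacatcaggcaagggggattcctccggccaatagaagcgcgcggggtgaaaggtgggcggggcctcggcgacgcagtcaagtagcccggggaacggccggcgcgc
Sdf2l1, chr16:17132384-17132633, minus strand: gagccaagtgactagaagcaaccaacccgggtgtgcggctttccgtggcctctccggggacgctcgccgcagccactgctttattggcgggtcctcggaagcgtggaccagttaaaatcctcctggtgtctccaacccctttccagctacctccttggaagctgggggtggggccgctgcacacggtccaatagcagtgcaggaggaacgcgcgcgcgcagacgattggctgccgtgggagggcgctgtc

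Among the J-domain proteins, which bring clients to BiP and set off its ATPase, Dnajc3 (590.3, 643, 901 and 1119.8 CPM) and Dnajb11 (233, 296, 391 and 468 CPM) had log2 fold changes of -0.71 and -0.70 (edgeR adjusted p = 0.0687 and 0.0988). Dnajc10, which also reduces disulfides (-0.40), and Dnajb9 (-0.31) differed less. For Dnajb9 the groups all but touched, at 182.6 CPM in KO replicate 2 and 183.3 CPM in heterozygous replicate 1. Hyou1, an exchange factor for BiP, was at 193, 263, 264 and 371 CPM (-0.48). Manf, a BiP-binding protein that β-cells secrete, was at 301, 358, 404 and 617 CPM (-0.63). In the calnexin cycle, in which lectins hold glycoproteins while they fold, the soluble Calr was at 545, 550.0, 803 and 1022 CPM (-0.74, SE 0.16, adjusted p = 0.0656). Its membrane-bound relative Canx was at 448, 577, 632 and 669 CPM (-0.34), and Uggt1, which tags misfolded glycoproteins for another round, was at 359, 344, 458 and 519 CPM (-0.47).

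Disulfide exchange held the gene with the lowest fold change of all 46 and a call. All 7 genes were lower without overlap, beside 23.8% of all genes tested, and the median was -0.47. Ero1lb, also called Ero1b, encodes the oxidase that passes electrons from protein disulfide isomerases to oxygen and is the main form in β-cells. It was at 776, 1578, 2862 and 3281 CPM. The libraries labelled KO differed from each other by a ratio of 2.03, the largest within either group, and the log2 fold change of -1.38 (SE 0.31) missed the threshold in the main test (edgeR adjusted p = 0.0711). It was -0.98 without KO replicate 1 and -1.99 without KO replicate 2, and passed in each. Its relative Ero1l was scarce, at 41.3, 57.6, 66.6 and 64.5 CPM (-0.41), and per kilobase of exon the heterozygous means were 462 CPM for Ero1lb and 12.4 CPM for Ero1l.

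Pdia6, a disulfide isomerase that also binds the sensor IRE1, fell. It was at 895, 1007, 1585 and 1987 CPM, which is -0.91 on the log2 scale (SE 0.16, edgeR adjusted p = 0.0361). KO replicate 1 was needed for the call (0.0586 without it), as was each heterozygous library, with an adjusted p of 0.0634 without replicate 1 and 0.234 without replicate 2. Pdia6 lies on chromosome 12 from 17266545 to 17284770 on the plus strand (GRCm38), and 1.34% of its exon bases overlap Atp6v1c2, whose reads cannot be told apart without strand. Pdia4 was at 335, 505, 547 and 739.8 CPM (-0.61), Pdia3, the isomerase that works with calnexin and calreticulin, at 1438, 1359, 1793 and 2073 CPM (-0.47), and P4hb, the founding isomerase of the family, at 1857, 1663, 2185 and 2511 CPM (-0.42). Pdia5 was at 122, 110.2, 127 and 138 CPM (-0.20) and differed least. Per kilobase of exon in the heterozygous libraries the order was P4hb (821 CPM), Pdia3 (616), Pdia6 (477), Ero1lb (462) and Pdia4 (268). The promoter windows of Ero1lb and Pdia6 are shown up to the first annotated exon base, with the ERSE in capitals, reverse in Ero1lb and forward in Pdia6.
Ero1lb, chr13:12565633-12565873, plus strand: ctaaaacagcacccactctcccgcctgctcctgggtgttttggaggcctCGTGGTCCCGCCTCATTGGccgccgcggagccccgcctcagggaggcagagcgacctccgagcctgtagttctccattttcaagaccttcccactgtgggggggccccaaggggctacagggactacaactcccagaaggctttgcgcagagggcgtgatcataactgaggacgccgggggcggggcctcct
Pdia6, chr12:17266339-17266544, plus strand: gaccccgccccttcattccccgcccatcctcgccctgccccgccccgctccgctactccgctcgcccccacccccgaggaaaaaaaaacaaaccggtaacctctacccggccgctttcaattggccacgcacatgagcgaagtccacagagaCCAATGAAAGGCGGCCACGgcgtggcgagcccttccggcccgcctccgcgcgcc

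ERAD held the other calls, at the steps that pick out and export glycoproteins. The median of the 10 genes was -0.44, and 8 were lower without overlap, beside 23.8% of all genes tested. In edgeR's test 2 fell, beside 1.34% of all genes. Derl3, a derlin of the export channel known to be induced by ER stress, was at 68.8 and 58.6 CPM under the KO label against 118 and 144 CPM (-1.04 on the log2 scale, SE 0.17, edgeR adjusted p = 0.0291). Its relatives moved less: Derl2 was at 118, 159, 162 and 164 CPM (-0.23) and Derl1 at 148, 139, 146 and 164 CPM (-0.11), where the groups overlapped. Edem1, which helps to trim mannose from misfolded glycoproteins, was at 191 and 197 CPM against 330.3 and 322 CPM (-0.75, SE 0.13, adjusted p = 0.0371), and its replicate ratios were 1.04 and 0.98. Edem2 was at 388, 364, 521 and 501 CPM (-0.44) and Edem3 at 88.2, 141, 136 and 150.2 CPM (-0.32), with overlap. Both calls were lost without either heterozygous library: for Derl3 the adjusted p was 0.0624 without replicate 1 and 0.189 without replicate 2, and for Edem1 it was 0.196 and 0.206. That of Edem1 was also lost without KO replicate 1 (0.0538).

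Derl3 lies on chromosome 10 from 75893413 to 75895941 and Edem1 on chromosome 6 from 108828641 to 108859356, both on the plus strand (GRCm38), and neither shares exon bases with another protein-coding gene. Their windows show that a call came with the ERSE in Derl3, where an E-box also lies a few bases upstream of it, and with none of the searched motifs in Edem1.
Derl3, chr10:75893148-75893397, plus strand: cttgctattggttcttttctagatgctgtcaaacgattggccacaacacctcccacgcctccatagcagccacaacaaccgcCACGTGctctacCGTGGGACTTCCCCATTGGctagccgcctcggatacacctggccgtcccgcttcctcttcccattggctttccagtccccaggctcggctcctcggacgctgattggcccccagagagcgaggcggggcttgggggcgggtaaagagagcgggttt
Edem1, chr6:108828391-108828640, plus strand: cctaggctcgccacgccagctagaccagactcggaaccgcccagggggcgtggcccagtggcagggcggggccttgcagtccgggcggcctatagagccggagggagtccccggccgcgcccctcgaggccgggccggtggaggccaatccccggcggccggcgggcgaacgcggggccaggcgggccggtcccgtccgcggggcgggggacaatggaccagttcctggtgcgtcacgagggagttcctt

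Os9, a lectin that hands trimmed glycoproteins to the ubiquitin ligase, was at 376, 313, 557 and 563 CPM (log2 fold change -0.70, edgeR adjusted p = 0.0625). The ligase itself, Syvn1 (HRD1), was at 228, 336, 377 and 389 CPM (-0.44), and its partner Sel1l at 242, 272, 302 and 371 CPM (-0.39). Herpud1, which assembles the complex and is induced by ER stress, was at 489.6, 629, 729 and 820.0 CPM (-0.47). For all 4 of these genes the groups did not overlap and the test was not passed.

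The translocon and signal peptidase differed less than the folding enzymes. Of 11 genes 7 were lower without overlap, beside 23.8% of all genes tested, and the median was -0.34 (-0.17 without heterozygous replicate 2). In edgeR's test 0 passed. At an unadjusted p under 0.05 there were 2, a share near the 16.9% of all genes tested. DESeq2 called Spcs3, where it called 3.82% of all genes lower, and neither limma fit called any. Sec61a1, the channel itself, was at 653, 859, 936 and 979 CPM (-0.34), while its small partner Sec61b was at 106, 87.7, 85.0 and 113 CPM (-0.03). Sec61g, the other small subunit, was listed at 3.93 to 5.09 CPM, or 1.85 CPM per kilobase of exon in the heterozygous libraries beside 77.9 for Sec61b and 142 for Sec61a1. Why subunits of 1 complex were at such unequal levels was not tested, and the Sec61g level stays in doubt. The labels do not say how reads with several matches were treated. The length used is that of all annotated exon bases together, 2464 for Sec61g, which can exceed that of a single transcript. Of the translocon-associated proteins, Ssr1 (248, 246, 294 and 347 CPM, -0.37, SE 0.14, edgeR adjusted p = 0.255), Ssr2 (294, 266, 314 and 404 CPM, -0.36) and Ssr4 (296, 234, 301 and 397 CPM, -0.40) did not overlap between groups, and Ssr3 did (322, 430.0, 402 and 429 CPM, -0.14). Of the signal peptidase, Spcs3 was at 375, 424, 528 and 538 CPM (-0.42, SE 0.14, adjusted p = 0.185). Its catalytic subunit Sec11c was at 286, 220.0, 288 and 391 CPM (-0.42), with a gap between the groups that is small beside the spread within them. Spcs2 (-0.13) and Spcs1 (-0.24) differed least, and the groups overlapped for Spcs1, of whose exon bases 16.3% are shared with Glt8d1.

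The sensors had the median nearest to 0 of the 5 roles with all libraries in. None passed in edgeR's, DESeq2's or either limma test. In edgeR's test 2 of 5 had an unadjusted p under 0.05, beside 16.9% of all genes tested. The median log2 fold change was -0.17. It was -0.34 without KO replicate 1, below that of ERAD (-0.32), and without KO replicate 2 the translocon was nearer to 0 (-0.25 against -0.26). Xbp1, whose spliced form drives ERAD and folding genes, was at 516, 514, 567 and 571 CPM (-0.15, SE 0.13, edgeR adjusted p = 0.636). The replicates lay within a few CPM of each other. Counts per gene do not separate spliced from unspliced Xbp1, so they do not show how active the factor was. Ern1, which encodes IRE1, was at 62.8, 42.9, 56.3 and 54.6 CPM (-0.07), with overlap. Atf6 was at 111, 126, 133 and 135 CPM (-0.17), and Atf6b at 140.1, 142, 179 and 175 CPM (-0.33, SE 0.13, adjusted p = 0.275). Wfs1, an ER membrane protein that dampens ATF6 and is mutated in Wolfram syndrome, with diabetes, had the lowest fold change of the class, at 171, 221, 259.5 and 304 CPM (-0.53, SE 0.17, adjusted p = 0.191).

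The libraries of a group also differed among themselves, in a shared direction mainly for the heterozygous pair. Heterozygous replicate 2 was above replicate 1 for 41 of the 46 genes, beside 49.1% of all genes tested. KO replicate 2 was above replicate 1 for 28 and below it for 18, where 49.9% of all genes tested were above. The genes with a KO ratio over 1.3 were 14, among them Hspa5, Hsp90b1, Hyou1, Dnajb9, Sdf2l1, Creld2, Pdia4, Ero1lb, Edem3 and Syvn1. By the same limit 2 genes went the other way, Ern1 and Sec11c. In the heterozygous pair 9 genes had a ratio over 1.3 and 0 went the other way. The share of all genes past this limit was not counted. The median over the 46 genes of the log2 CPM minus the gene's mean was -0.32 in KO replicate 1, -0.17 in KO replicate 2, 0.12 in heterozygous replicate 1 and 0.33 in heterozygous replicate 2. KO replicate 1 was also the library with the most dissociation stress RNA (1551 CPM) and acinar enzyme RNA, and their part in the spread was not tested.

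ER genes outside the list differed in the same direction by smaller amounts. Of 124 such genes, listed by role, 120 were tested and 0 passed in edgeR's test, with 26 at an unadjusted p under 0.05, beside 16.9% of all genes tested. DESeq2 called 13 as lower, beside 3.82% of all genes, limma-voom 1, beside 1.49%, and limma on the deposited scaled values 0, beside 1.79%. For 60 of the 120 the KO label was lower without overlap and for 7 it was higher, beside 23.8% and 25.3% of all genes tested. The log2 fold change was below 0 for 89 of the 120, and the median was -0.18. The glycosylation list had the lowest median of these roles with all libraries in (-0.32 over 18 genes, 16 below 0). It also holds the transport genes Lman1 (-0.45), Lman2 (-0.33) and Mcfd2 (-0.41), which are not glycosylation enzymes. Without KO replicate 1, other chaperones (-0.39) and COPII export (-0.28) had lower medians than the glycosylation list (-0.27). The glycosylation gene with the smallest p was Rpn2, a subunit of the oligosaccharyltransferase, at 798, 721, 1119.7 and 1193 CPM (-0.61, edgeR adjusted p = 0.0713). Export by COPII vesicles (-0.23) had Sec16b at 85.4, 63.7, 152 and 110.5 CPM (-0.82, adjusted p = 0.113). Other chaperones (-0.21) had the prolyl isomerase Fkbp11 at 158, 136, 201 and 329 CPM (-0.85, adjusted p = 0.132). Other disulfide proteins (-0.15), targeting and translocation (-0.15) and sensors and proteases (-0.13) were led by Txndc11 (-0.53), Srprb (-0.43) and Creb3l2 (-0.57). Other ERAD genes were nearest to 0 (-0.09 over 23 genes), with the ubiquitin ligase Rnf5 at 63.5, 68.5, 93.2 and 106 CPM (-0.59, adjusted p = 0.104).

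**Figure D4:**
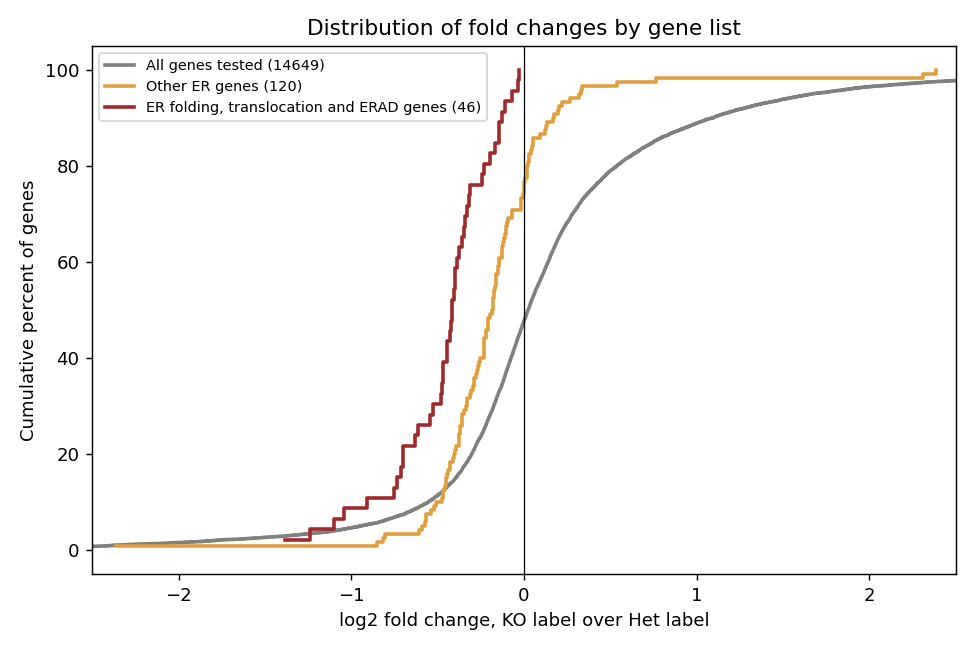
Cumulative percent of genes (vertical axis) by log2 fold change (horizontal axis) for all 14649 genes tested, the 120 other ER genes and the 46 genes described here. The curve of the 46 ends before 0 with a median of -0.42 (2 genes pass 0 with scaling by library size only), that of the other ER genes has a median of -0.18, and that of all genes has the longest tails, which run past the axis.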

How the data were processed

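RNA of sorted β-cells was measured in 4 libraries, grouped by the genotype in their titles. The kits named in the labels are RNeasy Plus Micro for extraction and SMART-Seq v4, which does not mark strand, for amplification. Per the submitters' processing notes, STAR, edgeR and mm10 were used, with versions, counting tool and annotation not given in the sources used here. Whole-number counts per gene symbol, without normalization, were deposited by the authors, with a second table of scaled values, used here as a signal, in which each value is the count divided by 1 constant per library. Whole reads were recovered for 99.97% to 99.99% of those values (tolerance 0.01), and the count test on them called 372 genes, as on the counts.

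Genes were kept by filterByExpr (at least 10 counts, and 15 in total), and TMM-scaled counts of all of them were tested with edgeR 4.0.16 in R 4.3.3 (glmQLFit and glmQLFTest, 2-sided, group as the only term), with Benjamini-Hochberg adjustment over 14649 genes and a threshold of 0.05. The standard error is the log2 fold change divided by the root of F. A count of 3 equals 0.0775 to 0.0937 CPM, and reads carry no molecular identifiers, so depth speaks for counting error only. On counts simulated from these libraries, more than the nominal share of the calls this fit made were false. Alternatives were other scalings and filters, DESeq2 1.42.0, limma 3.58.1 (voom, and trend on log2 of the deposited values plus 1), a replicate block, leaving out each library, and a threshold of 0.1. Exon lengths and overlaps are from GENCODE M21 (GRCm38), and promoter sequences from RefSeq (GRCm38.p6), where older symbols were followed only if they named 1 gene.

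The 46 genes and the other lists were chosen with earlier results of these data known, so no p is given for a list. Each of the 46 is named, with full statistics for genes past the threshold, the 2 smallest p-values of each role, and Hspa5, Xbp1, Wfs1 and Ero1lb; of the other ER genes, that with the smallest p in each role is named.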

Additional observations from a re-analysis of the deposited data

How the results depend on the processing

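The median log2 fold change of the 46 genes was negative under each alternative run, from -0.52 to -0.32 when 1 library was left out and from -0.42 to -0.37 otherwise, and 0 genes were called higher under any of them. The count called lower was 3 with RLE or upper quartile scaling, with the 20 most abundant genes taken out and with the recovered counts (added after seeing the data), and 2 with library sizes only, where Edem1 had an adjusted p of 0.0588. It was 10 with no filter on low counts (2.11% of all genes), 7 with a mean of 5 CPM or more (2.19%), 14 with DESeq2, 9 with limma-voom, 7 with limma on the deposited values and 10 at a threshold of 0.1 (2.39%). Pdia6, Edem1 and Derl3 were among those calls in each of these except library sizes only. Leaving out 1 library gave 0 to 9 calls. Without KO replicate 1 the 3 calls were Ero1lb, Derl3 and Os9. With the replicate number as a block, 10 genes were called, with 1.9% of all genes called lower. The labels do not say that a number marks a shared animal or day. Deviations of same-numbered libraries were not correlated over all genes tested (r = -0.0196). That value covers all genes and cannot tell whether the numbers pair libraries for these 46. Of the 46, replicate 2 was above replicate 1 for 41 in the heterozygous pair and for 28 in the KO pair. Genes above 0 were 2 with library sizes only and 1 with the 5 CPM filter, and up to 3 when a library was left out. Differences as small as those of the sensor genes Xbp1, Ern1 and Atf6, or of Sec61g at 3.93 to 5.09 CPM, could not be resolved with 2 libraries per group.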

Other observations

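Genes outside the 46 that carry an ERSE in their promoter window showed no common direction where tested. There were 27 such genes, of which 9 were tested; 4 had a log2 fold change below 0 and 5 above, with a median of 0.02, and 0 passed in edgeR's test, with 1 at an unadjusted p under 0.05. Most of the 9 were scarce, with an SE of 0.68 for Zfp57, 0.74 for Acacb, 0.91 for Xlr3b and 1.55 for Spats2l. So few and such scarce genes cannot tell whether ERSE genes outside the 46 were lower. The highest level was that of Pan2, a deadenylase subunit gene, at 244, 232, 174 and 144 CPM (log2 fold change 0.58, SE 0.15, adjusted p = 0.108). Alg12, a mannosyltransferase gene of the ER, was at 24.6, 36.3, 36.1 and 37.7 CPM (-0.28). Each library held both Xist (8.68, 38.8, 72.3 and 67.5 CPM) and the Y-linked Ddx3y (89.1, 23.8, 20.5 and 12.1 CPM), with KO replicate 1 apart from the other libraries in both. Under the KO label Xist was lower and Ddx3y higher, without overlap. RNA linked to both sexes was thus in each library, and the labels do not say whether animals were pooled. The part of sex in the group differences was not tested.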
